A study of Zea mays with 56 samples.

Results

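Recurring insertion sites are positions at which Mu transposon junctions were read at low abundance in many separate maize plants. A site was counted as recurring when it had at least 1 count in 10 or more of 17 Mu-active plants, 0 counts in all 4 Mu-inactive leaf libraries, and a relative abundance under 0.1 in each of the 50 undiluted libraries. Relative abundance scales the count of a site by the library's reference level. That level is the middle count of 28 positions, those reaching 10 or more counts in every undiluted library. By this rule 21586 of the 2253850 sites in the tables recurred. They made up 1.01% of the 2145283 rare sites, which meet the same limits on Mu-inactive leaf and on abundance but may lie in any number of plants, and they held 15.98% of the counts at rare sites. Counts, plants and abundance chose the sites, so those values are given below as a description.

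Mutator (Mu) elements are DNA transposons of maize that are mobilised by a transposase encoded by the autonomous element MuDR. Each insertion duplicates a short stretch of target DNA, and in earlier work Mu elements favoured the beginnings of genes and open chromatin. A somatic insertion that arises late in the growth of an organ is carried by few of its cells, so it is read at a small share of the level of an inherited insertion. MuKiller is a rearranged derivative of MuDR that silences Mu activity heritably.

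The libraries were made by MuSeq2, in which sheared genomic DNA receives an adapter and the DNA flanking Mu ends is amplified by PCR and sequenced. Mu-active plants came from a cross of a Mu-active father to a Mu-inactive mother, both of the W22 inbred background, and Mu-inactive plants were of that maternal line. Of the 17 Mu-active plants, 2 (42 and 52) had names beginning ND67 and 15 had names beginning ND58, and the Mu-inactive plants had names beginning ND59. A chip of endosperm was taken from each Mu-active kernel before it was sown, and the plant that grew from it gave primary root, seedling leaf or, at maturity, pollen. There were 6 roots, 6 leaves in 8 libraries, 14 pollen samples in 15 libraries and 15 endosperms labelled MuActive. A further 2 endosperms, of plants 61 and 74, had B73 MuKiller beside W22 MuActive in their genotype label, B73 being another inbred line, while the other tissues of these plants were labelled W22 MuActive alone. The Mu-inactive background came from 4 leaf libraries of 3 plants. Another 6 libraries held DNA of Mu-active leaves 79 and 83 diluted into Mu-inactive leaf DNA. Root and leaf DNA was prepared with a column kit, and pollen and endosperm DNA with a CTAB method.

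Depth differed widely between tissues. Reference levels were 8704 to 35519 counts in root, 8618 to 23714 in leaf, 69 to 7022 in pollen, 767.5 to 29232 in MuActive endosperm and 50220.5 to 80688 in Mu-inactive leaf. Total counts ran from 7119 in the shallowest pollen library to 3650060 in the root of plant 61. The number of sites a library reads depends on this depth, whereas relative abundances and shares of counts are scaled to it. Reads that were amplified by PCR may not stand for separate molecules, and the intervals below take in counting error alone.

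Few sites read in 10 or more plants had a count in plants without Mu activity. Mu-active leaves read 41.7% to 77.4% of the recurring sites, but these leaves took part in choosing the sites. Before the limit on Mu-inactive leaf was applied, 21620 sites lay in 10 or more plants at a relative abundance under 0.1, and 34 of them, or 0.157%, had any count in Mu-inactive leaf. Single Mu-inactive libraries read 15 to 20 of these sites, or 0.0694% to 0.0925%, although their reference levels were the highest of the series. The ceiling of 0.1 also covers the Mu-inactive libraries. With neither limit applied, 21815 sites lay in 10 or more plants, and 91 of them had a count in Mu-inactive leaf.

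The number of sites fell steadily with the number of plants, with no break at the limit of 10. Of the rare sites, 1623816 were read in 1 plant, 269111 in 2 plants, 29704 in 5 plants, 5170 in 10 plants and 1252 in all 17 plants. Just inside the limit, sites in 10 plants had a median of 27 counts over 12 libraries and a median highest relative abundance of 0.000922. Just outside it, the 6900 sites in 9 plants had a median of 23 counts over 10 libraries and a median highest relative abundance of 0.000777. The recurring set is therefore the upper end of a continuous distribution and not a separate class. Sites in all 17 plants had a median of 157 counts over 30 libraries. Over all recurring sites the summed count ranged from 10 to 2968 with a median of 43, and 58.3% of the sites lay in 10 to 12 plants.

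**Figure D1:**
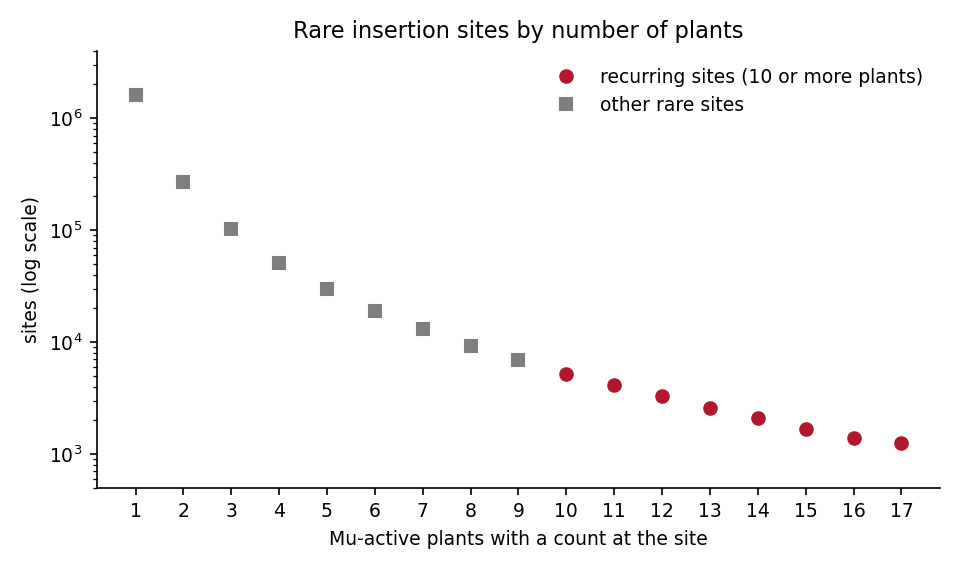
Number of rare sites (vertical axis, log scale) by the number of Mu-active plants in which the site had a count (horizontal axis). Red circles are the recurring sites, from 5170 sites in 10 plants to 1252 sites in 17 plants, and grey squares are the other rare sites.

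Recurrence carried over to plants that had no part in choosing the sites. When each plant was left out in turn and sites were chosen on 10 or more of the other 16 plants, between 17496 and 19927 sites qualified. The left-out plant then read 44.0% to 85.8% of them, with a median of 67.8%. Of the sites found in 1 of the other 16 plants, the left-out plant read 0.792% to 3.37%, with a median of 1.80%. The first share was 25.5 to 55.6 times the second, and it was the larger in all 17 plants. The groups were not matched on count. Over all 17 plants, rare sites in 1 plant had a median of 1 count and those in 10 plants a median of 27. The 17 choices share most of their plants and are not independent. Plant 105, with the lowest summed reference level of 7053.5, had the lowest share, and plants 79 and 83 the highest.

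**Figure D2:**
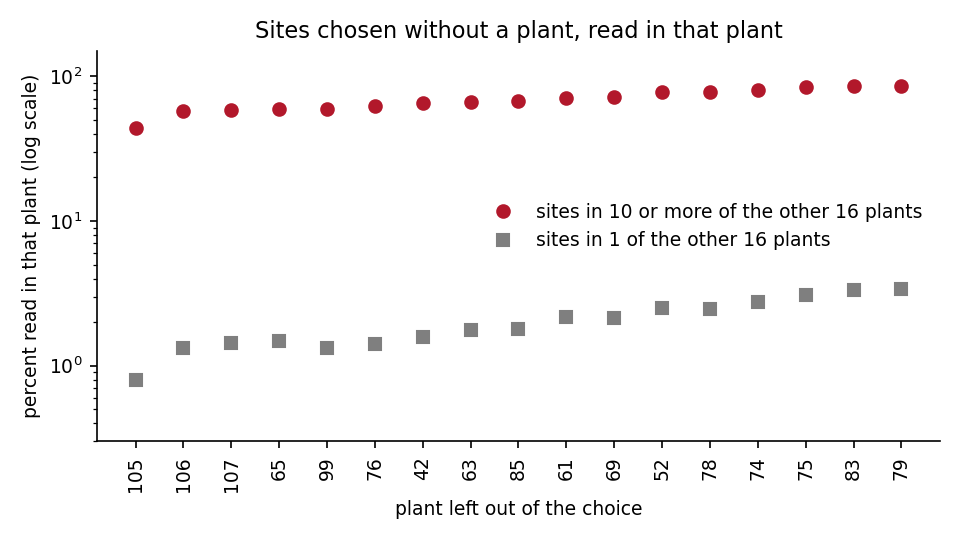
Percent of sites read in a plant (vertical axis, log scale) that was left out when the sites were chosen (horizontal axis, plants ordered by the red points). Red circles are sites in 10 or more of the other 16 plants, from 44.0% to 85.8%, and grey squares are sites in 1 of the other 16 plants, from 0.792% to 3.37%.

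The same held when sites were chosen from endosperm and looked up in tissues that grow from the embryo, which is formed by a separate fertilisation. There were 5603 rare sites in 10 or more of the 17 endosperms. Roots read 6.44% to 42.0% of them, with a median of 17.6% (n = 6), against 0.0727% to 0.703% of the sites found in 1 endosperm. Leaves read 55.1% to 85.8%, with a median of 78.1% (n = 6), against 1.16% to 3.43%. Pollen read 2.86% to 63.4%, with a median of 33.4% (n = 14), against 0.0336% to 1.54%. Here too the groups of sites were not matched on count.

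Repeat libraries of 1 plant and tissue read many of the same recurring sites. For leaf 75, the second library read 70.8% of the 13465 recurring sites of the first, against 19.7% of the sites found in 1 plant. For leaf 74 the shares were 60.4% of the recurring sites and 16.3% of the 1-plant sites. Among recurring sites with 10 or more counts in the first library, 99.8% in leaf 75 and 100% in leaf 74 were read again. The pollen of plant 79, whose libraries had reference levels of 95.5 and 69, gave 10.4% of recurring sites and 9.25% of 1-plant sites. Recurring sites have more counts than 1-plant sites, and the shares over all sites read are not matched on count. Of 1-plant sites with 10 or more counts in the first library, 99.7% in leaf 75 and 100% in leaf 74 were also read again. At sites with 1 count in the first library, the second read 57.0% of recurring and 13.1% of 1-plant sites in leaf 75. In leaf 74 these shares were 48.0% and 10.1%. Over all sites read, rare sites in 5 to 9 plants lay between, at 42.5% in leaf 75 and 33.6% in leaf 74.

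The diluted leaf libraries, which the choice of sites did not use, read fewer recurring sites at 1 part in 10 than at 1 part in 3. Of the 16275 recurring sites of leaf 79, 61.0% were read at 1 part in 3, 16.04% at 1 in 10 and 16.1% at 1 in 30. Their exact 95% binomial intervals are 60.3% to 61.8%, 15.5% to 16.6% and 15.5% to 16.6%. Of the 16711 recurring sites of leaf 83, 51.0% were read at 1 in 3, 21.6% at 1 in 10 and 9.31% at 1 in 30. The summed relative abundance of all recurring sites was 49.95%, 10.8% and 4.64% of the undiluted value at these dilutions of leaf 79, and 35.0%, 10.6% and 2.90% for leaf 83. In leaf 79 the summed abundance was thus lower at 1 in 30 than at 1 in 10 but the number of sites read was not, and the reference level was 12391 at 1 in 10 and 23890 at 1 in 30. There was 1 library per dilution and plant, so these values have no replicate check.

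The 10 sites read in the most plants were all read in 17 plants and in 40 to 43 of the 46 undiluted Mu-active libraries. All span 9 bp, the length of most sites in the tables, and their sequence context was not analysed here. The first of them was chr6:166313663-166313671, with 1169 counts, of which 470 came from the left border and 699 from the right. Its relative abundance had a lowest, median and highest value of 0, 0.000313 and 0.000788 in root, and of 0.00181, 0.00344 and 0.00789 in leaf, so root and leaf did not overlap. In pollen these values were 0, 0.00444 and 0.00859, and in endosperm 0.000621, 0.00205 and 0.00513, with wide overlap. This site had 11 other recurring sites within 1000 bp.

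At chr5:71193666-71193674, the values were 0, 6.18e-05 and 0.000113 in root and 0.000628, 0.00178 and 0.00269 in leaf. In pollen they were 0, 0.00260 and 0.00665, and in endosperm 0, 0.000428 and 0.00130. Leaf and pollen were the high tissues here, with 11 of 14 pollen samples above the highest endosperm, and no other recurring site lay within 1000 bp. At chr5:179239366-179239374 the values were 0, 0.000801 and 0.0108 in root and 0.00139, 0.00239 and 0.00410 in leaf. The root of plant 61 was thus above every leaf at this site, and the other 5 roots were below every leaf.

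The other members of this group were spread over chromosomes 1, 2, 4, 8 and 10. These were chr10:126828973-126828981 with 1007 counts, chr2:11397102-11397110 with 529, chr4:232384305-232384313 with 812 and chr8:29004715-29004723 with 440. On chromosome 1, chr1:218464789-218464797 had 841 counts and chr1:64018338-64018346 had 737. At chr1:1465152-1465160 the combined table gave 1134 counts while the border tables gave 0 at the left and 567 at the right. That is 1 of 12 recurring sites at which the combined count is not the sum of the borders, so its abundance may be too high.

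**Figure D3:**
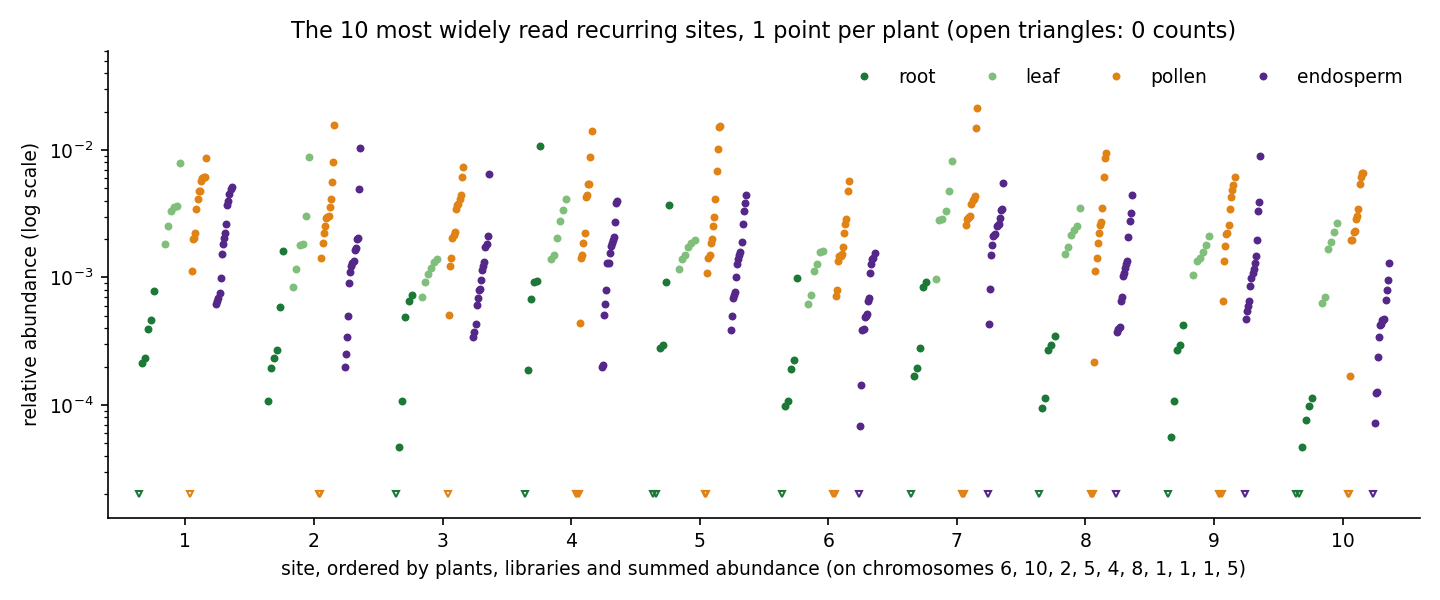
Relative abundance (vertical axis, log scale) of the 10 sites read in the most plants (horizontal axis), with 1 point per plant for root, leaf, pollen and endosperm labelled MuActive. Open triangles at the lower edge are samples with 0 counts. The highest leaf value is 0.00789 at the first site and root points lie low at most sites, while between 0 and 6 of 14 pollen points lie above the highest endosperm at 9 of the sites and 11 of 14 at chr5:71193666-71193674.

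Only a small part of each site's abundance was concentrated in 1 plant at these 10 sites, where the leading plant held 12.9% to 23.7% of the summed relative abundance. Over all recurring sites the leading plant held a median of 31.9%, with quartiles of 23.7% and 44.6%. The highest relative abundance of a site in any library was under 0.01 at 93.6% of the recurring sites and under 0.001 at 35.4%. That highest value came from a pollen library at 64.0% of the sites, and 19.9% of these pollen values rested on 1 count.

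The 3 sites of highest relative abundance had another make-up. The pollen of plant 105 had a relative abundance of 0.0991 at chr1:201660629-201660637, which was read in 13 plants. The endosperm of plant 52 had 0.0986 at chr5:58107973-58107981, read in 16 plants, and the pollen of plant 42 had 0.0979 at chr8:148762887-148762895, read in 13 plants. The leading plant held 92.6%, 89.99% and 97.5% of the summed abundance at these 3 sites. They lie just under the ceiling of 0.1 and combine 1 abundant sample with low counts in many other plants.

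Recurring sites were read in all tissues. Of the 21586 sites, 53.0% had a count in all 4 tissues and 41.8% in all except root. Root read 55.5% of the sites over its 6 plants, leaf 99.6%, pollen 95.1% and endosperm 99.98%. Endosperm here means all 17, with the 2 labelled MuKiller included. Only 20 sites were read in a single tissue, which was endosperm in each case. These shares follow the number and depth of libraries per tissue as well as abundance.

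Scaled to the reference level, roots carried less of these sites than leaves. The summed relative abundance over all recurring sites was 0.973 ± 0.483 in root (SD, n = 6) and 3.30 ± 0.718 in leaf (SD, n = 6). The highest root, at 1.64, lay below the lowest leaf, at 2.52. In the 2 plants with both tissues, 74 and 75, the root minus leaf difference averaged -2.55. At a common reference level of 1000 a root would read 376 ± 186 recurring sites and a leaf 2310 ± 481. In bulk DNA, fewer cells with an insertion and a weaker yield of its junctions cannot be told apart.

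Pollen and endosperm overlapped. The summed relative abundance was 5.71 ± 2.99 in pollen (SD, n = 14) and 2.84 ± 1.31 in endosperm (SD, n = 15). The lowest pollen value was 2.40 and the highest endosperm value 5.90. The pollen of plant 52, at 14.3, stood above the other pollen samples. In the 13 plants with both tissues pollen was higher in 12, by a mean of 3.01 ± 3.00 (SD). The dose per genome of the reference positions and of an insertion was not compared between tissues. These levels may therefore not share a common scale. The 2 endosperms labelled MuKiller had 4.76 in plant 61 and 2.08 in plant 74, both within the range of the MuActive endosperms.

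Recurring sites took a similar share of rare-site counts in every tissue, between 13.0% and 18.9% of the counts in each plant's sample. The share was 16.1% ± 2.10 in root, 16.3% ± 0.617 in leaf, 17.3% ± 0.858 in pollen and 14.7% ± 0.797 in endosperm (SD, n = 6, 6, 14 and 15). It was 14.4% and 13.98% in the MuKiller-labelled endosperms of plants 61 and 74. In the 13 plants with both tissues pollen exceeded endosperm in 13, by 2.70 ± 1.05 percentage points (SD). The summed abundance of all rare sites was 5.84 ± 2.40 in root, 20.4 ± 4.74 in leaf, 32.9 ± 17.6 in pollen and 19.1 ± 8.39 in endosperm. The tissue differences at recurring sites therefore accompanied those at rare sites as a whole.

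**Figure D4:**
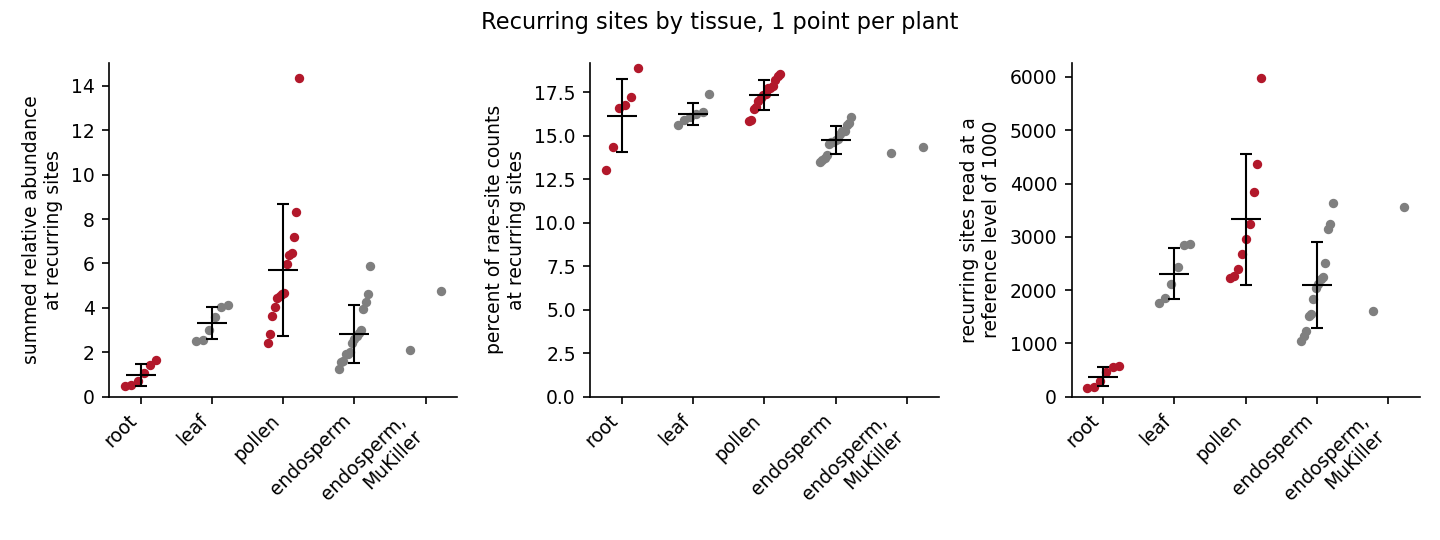
Recurring sites by tissue, with 1 point per plant and bars for mean ± SD (no bars for the 2 MuKiller-labelled endosperms). The panels plot summed relative abundance, percent of rare-site counts at recurring sites, and the expected number of recurring sites at a reference level of 1000, for samples at least that deep. Root lies below leaf in the first and last panel, and all plants lie between 13.0% and 18.9% in the middle panel.

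Site by site, the number of tissue differences called depended on the test. All 21586 recurring sites were among the 100023 sites tested. Of the recurring sites, 7293 were lower in root than in leaf and 112 were higher (edgeR quasi-likelihood test, Benjamini-Hochberg adjusted over all tested sites), against a background of 20.7% of all tested sites called lower and 0.751% called higher. The median log2 difference, root over leaf, was -2.40 over recurring sites and -1.64 over all tested sites. With TMM factors these medians were -2.54 and -1.97. They are not matched on count. Rare sites in 5 to 9 plants, which have fewer counts, had a median of -1.46 with the reference level. Recurring sites held a similar share of rare-site counts in root and leaf, at 16.1% and 16.3%. On simulated counts this edgeR test gave too many small p-values at unchanged sites and recovered few of the changed ones. Its counts of calls are therefore no measure of how many sites differ. The simulation changed few sites and held the others equal between tissues, so its recovery need not carry over to the real counts. The bias-adjusted form of the edgeR test, added once the data had been seen, did not give too many small p-values on the same simulated counts but recovered none of the changed sites. It called 28 recurring sites lower, against a background of 0.128%, and 3 higher, against a background of 0.091%. It had 7700 recurring sites at an unadjusted p under 0.05, of 17928 among all tested sites.

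The number of calls also rested on other settings and on single plants. With TMM factors edgeR called 560 recurring sites lower, against a background of 1.54%, and 5 higher, against a background of 0.212%. DESeq2 called 161 recurring sites lower, against a background of 0.166%, and 0 higher, against a background of 0.001%, with 3585 at an unadjusted p under 0.05 in either direction, of 3690 among all tested sites. With the plant as a replicate block edgeR called 0 recurring sites and 0 in all, with 8199 recurring sites at an unadjusted p under 0.05, of 13424 among all tested sites. Leaving out plant 63, 61, 69 or 74 left 466, 627, 676 or 1242 recurring sites called by edgeR in place of 7405, and 1448, 1918, 2052 or 3998 tested sites in all in place of 21425. Leaving out plant 75, 65, 83 or 79 left 2639, 3980, 4353 or 4740 recurring sites and 8001, 11370, 12110 or 13623 in all.

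Of the recurring sites, 2624 were higher in pollen than in endosperm and 597 were lower by the same edgeR test, against a background of 12.4% called higher and 2.53% called lower, so recurring sites were called about as often as tested sites in general. The median log2 difference, pollen over endosperm, was 0.78 over recurring sites and 0.38 over all tested sites, but turned to -0.79 and -0.81 with TMM factors, under which 360 recurring sites were called higher, against a background of 3.08%, and 3054 lower, against a background of 17.8%. The direction of this comparison therefore depends on the scaling, and its medians are not matched on count either. DESeq2 with the reference level called 1000 recurring sites higher, against a background of 1.06%, and 13 lower, against a background of 0.023%. Only 12219 of the 100023 tested sites had a DESeq2 adjusted p in this comparison. The other sites could not be called but count in the background, so these shares do not compare recurring sites with equally callable ones. The bias-adjusted form of the edgeR test called 663 recurring sites higher, against a background of 3.33%, and 63 lower, against a background of 0.184%. With the plant as a replicate block edgeR called 4 recurring sites, all lower, against a background of 0.007%, with 1913 at an unadjusted p under 0.05, of 5242 among all tested sites.

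The sites of lowest adjusted p were mostly sites with 1 strong sample. At chr10:64550864-64550872 the relative abundance in root had a lowest, median and highest value of 0, 1.92e-05 and 0.0283, and all 6 leaves were at 0 (edgeR adjusted p = 0.00613). The root of plant 65 supplied the high value, and without this plant the adjusted p was 0.133. The sites chr6:85468631-85468639 and chr8:151517273-151517281 were also called higher in root and had their highest values, 0.00414 and 0.0329, in the roots of plants 74 and 63. The edgeR adjusted p at these sites was 0.186 without plant 74 and 0.977 without plant 63. At chr3:186971427-186971435 all 6 roots were at 0 and the leaves had 0, 0.000115 and 0.0255 (edgeR adjusted p = 0.00613), with the highest value in plant 75. At chr10:63119313-63119321 and chr4:252274132-252274140 all 6 roots were also at 0, and leaf 74 held the highest values of 0.0206 and 0.0256. Without the leading plant the edgeR adjusted p at these 3 sites was 0.0505, 0.0690 and 0.0631. With the plant as a replicate block none of these 6 sites was called (edgeR adjusted p 0.210 to 1). The bias-adjusted test called 5 of them and not chr6:85468631-85468639 (adjusted p = 0.112).

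Between pollen and endosperm, 3 of the 6 sites named were still called when each of the 17 plants was left out in turn, and 1 of these 3 was called with the plant as a replicate block. At chr7:134227338-134227346 the relative abundance reached 0.00399 in pollen and was above 0 in 4 of 14 pollen samples, while all 15 endosperms were at 0 (edgeR adjusted p = 5.94e-06, at most 0.000148 without 1 plant). At chr4:238178164-238178172 it reached 0.00207 in pollen and was above 0 in 5 of 14 pollen samples, while all 15 endosperms were again at 0 (edgeR adjusted p = 7.87e-06, at most 4.90e-05 without 1 plant). At chr7:141317991-141317999 all 14 pollen samples were at 0 and the endosperms had 0, 0.00207 and 0.00854, with counts in 11 of 15 (edgeR adjusted p = 0.000259, at most 0.000639 without 1 plant). DESeq2 gave adjusted p-values of 0.0211, 0.0107 and 0.0169 at these sites. With the plant as a replicate block the edgeR adjusted p was 0.225, 0.208 and 0.00557, so the calls of both sites that were higher in pollen were lost. Pollen medians were 0 at all 3, and most pollen libraries are shallow, so a value of 0 there is a weak bound.

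The other named sites of this comparison again followed 1 plant. At chr8:162441184-162441192 the pollen of plant 52 had 0.0202 and 1 other pollen sample a count, and the edgeR adjusted p was 0.529 without plant 52. At chr3:157798575-157798583 the endosperm of plant 52 had 0.0526, and at chr6:94359262-94359270 the endosperm of plant 83 had 0.0435, while all 14 pollen samples were at 0 at both sites. The edgeR adjusted p was 0.258 without plant 52 and 0.130 without plant 83. Of the 12 sites named for these comparisons, 9 had no DESeq2 adjusted p, and 3 were called by edgeR without their leading plant.

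Reading of a recurring site in 1 tissue was set against reading in another tissue of the same plant and of other plants, and the mean shares differed by at most 1.17 percentage points in size. A plant's pollen read on average 24.6% of the recurring sites with a count in its own endosperm. It read 25.7% of those with a count in the endosperm of another plant (n = 14). The difference was -1.09 ± 1.43 percentage points (SD), and the share was higher for sites of the own endosperm in 4 of 14 plants. For leaf given endosperm the difference was -1.05 ± 1.53 points, higher in 2 of 6 plants, and for root given endosperm -1.17 ± 1.27 points, higher in 2 of 6. Among tissues of the embryo lineage, pollen given leaf differed by -0.12 ± 0.292 points (n = 6) and was higher in 1 of 6 plants, pollen given root differed by 0.378 ± 0.261 points and was higher in 3 of 3, and root given leaf differed by 0.0655 ± 0.0505 points and was higher in 2 of 2. The mean difference was thus below 0 in all 3 pairs with endosperm and in pollen given leaf, and above 0 in both pairs with root and another tissue of the embryo lineage, and none was tested. The rule counts a plant only once however many of its tissues read the site. The choice of sites may thus bear on these differences, and so may the depth of the libraries, which was not matched. In pollen given endosperm the highest difference, 1.20 points, was in plant 75 and the lowest, -3.59 points, in plant 52. The endosperms of these plants read 24.1% and 62.6% of the recurring sites. Neither effect was tested.

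Along the chromosomes, recurring sites lay in 1900 of the 2127 bins of 1 Mb that hold any rare site and lay more often near chromosome ends than other rare sites did. Sites are not replicates, so these shares are given without a test. The outer 10% at each end held 41.1% of recurring sites, 39.0% of rare sites in 5 to 9 plants and 35.6% of rare sites in 1 plant. The middle 20% held 7.77%, 8.88% and 10.4% of these classes. All 10 chromosomes had recurring sites in near proportion to their rare sites, from 0.921 per 100 rare sites on chromosome 7 to 1.12 on chromosome 5. The bin with the most was positions 249000001 to 250000000 of chromosome 4, with 100 recurring among 4915 rare sites. These positions are in the coordinates of the deposited tables, whose build is not given in the sources used here.

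At finer scale the sites were clustered. Another recurring site lay within 8 bp of 28.2% of them, within 100 bp of 62.3% and within 1000 bp of 75.6%. They fell into 11561 tiles of 1 kb, and 69.6% shared their tile with another. A recurring site had a median of 63 rare sites in its tile, against 30 for a rare site in 1 plant. In these tiles recurring sites were 3.18% of the rare sites and took 32.6% of the rare-site counts. The densest tile was at positions 11958001 to 11959000 of chromosome 9, with 35 recurring among 506 rare sites. Recurring sites thus lay in tiles rich in rare sites. By the rule each has at least 10 counts, so a larger share of counts than of sites follows from the choice. Over all rare sites these shares were 15.98% of counts and 1.01% of sites.

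Neighbouring recurring sites had preferred spacings. Pairs whose starts were 2 bp apart numbered 1155, and pairs 4 bp apart 1053, which is 7.21 and 6.58 times the mean of 160.1 pairs per distance over 21 to 60 bp. Pairs 1 bp apart numbered 811, or 5.07 times that mean, and pairs 3 bp apart 392, or 2.45 times. At 9 bp, the length of the span, there were only 69 pairs, or 0.431 times the mean, and at 10 bp there were 422, or 2.64 times. Pairs of rare sites varied less, with 1.82 times their mean at 1 bp, where they were most frequent, 1.75 times at 2 bp and at 4 bp, 0.853 times at 9 bp and 1.33 times at 10 bp. The rare sites include the recurring ones. Within close recurring pairs the counts were of similar size, with a median ratio of the larger to the smaller of 1.95 at 2 bp and at 4 bp, and 3.90% and 2.37% of these pairs differed more than 10 times.

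**Figure D5:**
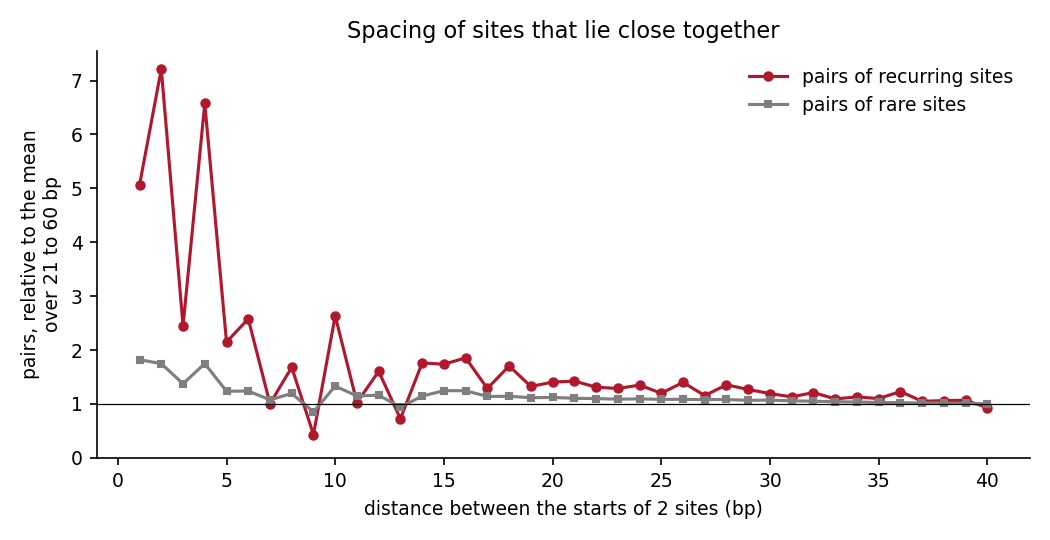
Number of site pairs (vertical axis, relative to the mean over 21 to 60 bp) by the distance between their starts (horizontal axis, bp, shown to 40 bp). Red circles are pairs of recurring sites, with peaks of 7.21 at 2 bp, 6.58 at 4 bp and 2.64 at 10 bp and a low of 0.431 at 9 bp, and grey squares are pairs of rare sites.

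The junctions of recurring sites were read from both ends of the element. Both borders had a count at 20999 sites, or 97.3% (exact 95% binomial interval 97.1% to 97.5%), with 288 sites read at the left border only and 299 at the right only. At a total of 10 to 19 counts the share was 94.7% of recurring sites, 95.3% of rare sites in 5 to 9 plants and 87.3% of rare sites in 1 plant. At 100 or more counts it was 98.2%, 97.5% and 94.4%, so a high share was not particular to recurring sites. At recurring sites the median share of counts from the left border was 50%, with quartiles of 41.7% and 58.6%. A share between 25% and 75% was found at 90.1% of the sites. Within 1 library, a median of 30.1% of the recurring sites read had both borders. Another recurring site lay within 8 bp of 38.0% of the 587 sites read at 1 border, and of 27.9% of the sites read at both. The site chr7:141317991-141317999 had 481 counts in 13 plants, all from the left border, and another recurring site within 8 bp.

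Few recurring sites lay beside abundant insertions, but a larger share did than of rare sites in 1 plant. Of the recurring sites, 0.973% lay within 8 bp of 1 of the 673 sites at a relative abundance of at least 0.1, against 0.786% of rare sites in 5 to 9 plants and 0.208% of rare sites in 1 plant. Within 2 bp these shares were 0.417%, 0.260% and 0.0639%. Sites that were abundant in 1 plant were set beside the recurring sites. The mean relative abundance of a recurring site over the undiluted Mu-active libraries had a median of 0.000105. For the 547 sites at 0.1 or more in 1 plant only, the mean relative abundance in the other plants had a median of 1.56e-05. These sites had counts in a median of 2 other plants, 18.3% of them in 9 or more other plants and 18.1% in none. The medians of 0.000105 and 1.56e-05 are unlike measures. Recurring sites were chosen for counts in many plants, and their mean takes in the leading plant. The 547 sites were chosen for abundance in 1 plant, and that plant is left out of their mean. The gap between the medians thus follows in part from the choice of sites, and no conclusion is drawn from it. Whether reads passed between libraries at either kind of site was not tested.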

How the data were processed

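The authors deposited whole-number counts per insertion site and library, in 1 table for both borders and 1 for each border. Bowtie2 is named in the submitters' processing notes. Not given in the sources used here are its version, the genome build, the insertion caller and whether reads were collapsed to molecules. Columns were joined by the number in the library name, since some labels of a library name different plants (title and description disagree for the second leaf 75 library, pollen 69 and pollen 99). The members and lists were chosen with earlier results of these data known. All 56 library columns were used.

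Technical libraries were averaged for levels and summed for tests. Sites with a count in at least 5 plants (100023 sites) were tested with edgeR 4.0.16 quasi-likelihood, tissue as the only term and the reference level as library size, in one fit of the 4 tissues, with Benjamini-Hochberg adjustment over all tested sites and a threshold of 0.05. DESeq2 1.42.0, TMM factors, a replicate block, other filters, single borders, deep libraries and each plant left out were alternatives. Procedures were tested on simulated counts, with dispersions from the trend over abundance fitted to the real counts. Few sites were changed, and all others had equal abundance in every tissue. There the main edgeR test gave too many small p-values at unchanged sites, the bias-adjusted form (legacy off, added after seeing the data) did not. Changes of raised sites were estimated more closely than those of lowered sites. Both edgeR forms called few or none of the changed sites, and DESeq2 called more, chiefly sites raised in pollen. After adjustment each of these tests called few or no unchanged sites. Recovery may be different in the real data, where differences were not limited to a few sites. Tissues with 1 plant number come from 1 plant, so the numbers pair the samples. Deviations from tissue means had a median correlation of -0.0139 in 33 same-plant pairs of samples and 0.000222 in 561 other pairs over recurring sites, and of 0.0564 and -0.00334 over all tested sites. Named sites are the 10 read in the most plants (ties by libraries, then summed abundance), the 3 of highest abundance, and the 3 of lowest adjusted p per direction and contrast. R 4.3.3, Python 3.11.15, numpy 2.4.6, pandas 2.3.3, scipy 1.17.1 and matplotlib 3.10.9 were used. Whether samples of a tissue were handled as separate batches is not stated, and sequencing runs were not analysed here.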

Additional observations from a re-analysis of the deposited data

Results flagged for a closer look

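Among the 6 roots or the 6 leaves, 49 sets of values were examined for 1 plant far from the other 5, and 12 had one. Chance alone flags about 1 in 20 such sets, and the sites named for a tissue difference were chosen partly for such values.

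Root 74 took 54.9% of its recurring-site counts from the left border, against 49.8% to 50.5% in the other 5 roots. The most abundant recurring site of leaf 76 had a relative abundance of 0.0841, against at most 0.0465 in the other leaves.

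At sites read in the most plants, single samples stood out within their tissue. Leaf 76 had a relative abundance of 0.00789 at chr6:166313663-166313671. Plant 74 was highest at chr10:126828973-126828981 both in root, at 0.00161, and in leaf, at 0.00880. Root 61 had 0.0108 at chr5:179239366-179239374, root 75 had 0.00372 at chr4:232384305-232384313 and root 69 had 0.000986 at chr8:29004715-29004723.

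At sites named for a tissue difference, leaf 75 had 0.0255 at chr3:186971427-186971435. Leaf 74 had 0.0206 at chr10:63119313-63119321 and 0.0256 at chr4:252274132-252274140, and leaf 78 had 0.000633 at chr8:162441184-162441192.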

How the results depend on the processing

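The number of recurring sites, 21586, became 37794 with at least 8 of 17 plants, 12306 with at least 12, and 5992 where a plant needed at least 2 counts. It was 8939 in the left border table and 8901 in the right. In alternatives chosen after seeing the data it was 14188 without pollen libraries and 5603 in endosperm libraries alone. It stayed within 1.5 times under the other 8 definitions tried. Their share of rare-site counts became 21.6% in leaf, 18.9% in pollen and 18.1% in endosperm where a library needed at least 2 counts, and moved by less than 1 SD in root. The share read at both borders became 96.8% with at least 2 counts at each border and 97.5% for sites in at least 12 plants. For recurring sites with at least 10 undiluted counts, 98.9%, 62.1% and 63.8% were read at 1 in 3, 10 and 30 in leaf 79, and 88.9%, 56.8% and 30.0% in leaf 83.

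Calls of tissue differences moved most, and the cause was not tested. For root over leaf, 7405 recurring sites and 21425 sites in all were called. These counts became 161 and 167 with DESeq2 on the reference level, 916 and 943 with DESeq2 poscounts, 565 and 1748 with TMM, 31 and 219 with the bias-adjusted quasi-likelihood test chosen after seeing the data, 946 and 4516 for sites in at least 3 plants, 11231 and 11305 for at least 10, 0 and 3 with no filter, 3048 and 8548 in deep libraries, 1190 and 3173 at the left border, and 2123 and 5166 at the right. With 1 plant left out they ranged from 466 to 8563 and from 1448 to 27124. For pollen over endosperm, 3221 and 14887 were called. These became 1013 and 1080 with DESeq2, 409 and 483 with poscounts, 726 and 3519 with the bias-adjusted test, and 445 and 87542 with no filter. The count over all sites became 27555 for sites in at least 3 plants, 4561 for at least 10 and 9840 at the right border. With 1 plant left out they ranged from 2395 to 3362 and from 11281 to 15067. With the plant as a replicate block, the paired fit called 0 recurring sites and 0 in all for root over leaf, where 2 plants have both tissues, and 4 and 8 for pollen over endosperm, where 13 do. Depth limits pollen most, where 1 count was a relative abundance of 0.0145 in the shallowest library.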
